A study of Mus musculus with 8 samples.

Results

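The genes of the matrix metalloproteinases (MMP), the ADAM and ADAMTS metalloproteinases, the ADAMTS-like proteins and the tissue inhibitors of metalloproteinases (TIMP) were described in hearts labelled as lacking PHD2 and PHD3 in endothelial cells. Members were the genes whose symbol begins with Mmp or Timp and a digit, or with Adam, and these were 85 of the 22518 genes in the table. RNA from whole hearts of C57BL/6 mice at postnatal day 12 had been sequenced, with 4 libraries of wild type littermates and 4 of mice with an endothelial knockout of PHD2/3. PHD2 and PHD3 are the oxygen-dependent prolyl hydroxylases that mark hypoxia-inducible factors for degradation, and their genes are Egln1 and Egln3. The driver of the deletion and the animals behind each library are not stated in the labels, so the tests measure the spread between these libraries, which may be technical.

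MMPs cut collagens, gelatin and other matrix proteins outside the cell, and the membrane-type MMPs do so at the cell surface. ADAM proteases are anchored in the membrane and release the outer parts of growth factors, receptors and adhesion proteins, whereas ADAMTS proteases are secreted, bind the matrix and cut proteoglycans and procollagens. TIMPs bind the active site of these enzymes, and in the heart the balance of proteases and TIMPs is known for its part in matrix turnover. Some ADAM proteins lack a working catalytic site, and ADAMTS-like proteins have the accessory domains of ADAMTS but no protease domain.

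Levels are FPKM, fragments per unit of transcript length and of mapped fragments, which the authors had quantile normalised across the 8 libraries, and depth is unknown. Tests covered genes whose mean over the 8 libraries reached 1 FPKM, and a gene was called at an adjusted p under 0.05 (limma, Benjamini-Hochberg over all 11390 genes tested). Log2 changes are knockout minus wild type of log2(FPKM + 1) with the SE, and they understate the change of genes at low levels. Cardiomyocyte genes summed to 28656 FPKM in knockout replicate 4 and to between 35201 and 40575 FPKM in the other libraries. All 8 measured cardiomyocyte markers passed the filter. Wild type replicate 4 held 1030.4 FPKM of the airway gene Scgb1a1, against at most 0.323 FPKM in the others. Its summed neutrophil markers were 34.5 FPKM, against 4.12 to 11.9 FPKM elsewhere. Knockout replicate 4 has a library number far from the others, and its summed fibroblast markers were 902 FPKM, against 1313.3 to 1736 FPKM elsewhere. Egln1 lay between 45.2 and 63.5 FPKM and Egln3 between 17.96 and 52.8 FPKM over all libraries, neither was called, and a gene-level value in whole heart does not check an endothelial deletion.

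The inhibitor genes Timp4 and Timp1 moved in opposite directions, and Mmp14 and Adamts1 were the called MMP and the called ADAMTS gene with the highest levels in knockout hearts. The 250 bases before the start of these 4 genes are therefore shown, from RefSeq on GRCm38.p6, written 5′ to 3′ on the strand of the gene. Capitals mark matches on either strand to ACGTG or GCGTG, the core letters of the hypoxia response element.
Timp4, chr6:115252206-115252455, minus strand: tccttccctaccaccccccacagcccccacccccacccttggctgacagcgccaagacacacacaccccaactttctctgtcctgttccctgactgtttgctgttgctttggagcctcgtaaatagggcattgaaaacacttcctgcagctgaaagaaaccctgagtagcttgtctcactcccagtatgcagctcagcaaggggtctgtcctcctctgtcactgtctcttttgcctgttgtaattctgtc
Timp1, chrX:20869916-20870165, plus strand: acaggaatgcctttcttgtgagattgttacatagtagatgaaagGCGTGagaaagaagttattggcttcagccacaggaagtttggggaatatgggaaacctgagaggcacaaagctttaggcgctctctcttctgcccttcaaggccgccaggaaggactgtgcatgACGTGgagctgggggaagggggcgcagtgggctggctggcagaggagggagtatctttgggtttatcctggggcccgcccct
Mmp14, chr14:54431348-54431597, plus strand: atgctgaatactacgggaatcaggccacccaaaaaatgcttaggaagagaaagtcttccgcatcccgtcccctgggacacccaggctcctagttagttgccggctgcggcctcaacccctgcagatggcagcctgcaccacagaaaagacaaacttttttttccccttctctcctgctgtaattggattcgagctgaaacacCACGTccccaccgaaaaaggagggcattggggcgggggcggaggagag
Adamts1, chr16:85803114-85803363, minus strand: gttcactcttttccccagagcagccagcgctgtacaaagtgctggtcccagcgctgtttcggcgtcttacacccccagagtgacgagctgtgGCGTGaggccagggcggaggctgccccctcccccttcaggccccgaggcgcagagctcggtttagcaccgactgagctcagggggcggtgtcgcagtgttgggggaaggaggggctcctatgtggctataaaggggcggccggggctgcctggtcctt

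The Timp4 window held neither motif. The Timp1 window held ACGTG with its first base 82 bases before the start and GCGTG 206 bases before it. The Mmp14 window held ACGTG 48 bases before the start, read on the opposite strand, and the Adamts1 window held GCGTG 158 bases before it. Of all 32851 windows of this length, 16.6% held ACGTG and 28.2% held GCGTG, counted on both strands, so such matches are common. The windows of Timp2 and Timp3 each held GCGTG, at 113 and 69 bases before the start, and neither gene was called. The AP-1 letters TGANTCA, which 6.75% of all windows held, were in none of the windows of the 4 TIMP genes. Among the called members, Adam9, Adam12, Adamts4 and Adamts15 were not matched to a window.

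Timp4 fell most among all members. It encodes the TIMP best known from heart muscle and vessels and lies on chromosome 6 from 115241892 to 115252205 in mm10. Timp4 was at 22.9, 11.5, 10.1 and 15.9 FPKM in wild type hearts, replicates 1 to 4 in order as in all lists that follow, and at 1.46, 1.31, 2.79 and 3.41 FPKM in knockout hearts. The groups did not overlap, and the highest knockout library lay far below the lowest wild type library. The mean went from 15.1 ± 5.73 to 2.24 ± 1.02 FPKM (SD, n = 4), a 6.74-fold lower level. This is a log2 change of -2.30 ± 0.28 (limma adjusted p = 0.00190, exact two-sided permutation p = 0.0286, the smallest that 70 splits allow). Wild type hearts varied among themselves as well, from 10.1 to 22.9 FPKM, and replicate 1 was the highest.

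Timp1 rose. This gene encodes a secreted inhibitor that injured or inflamed tissue induces, and it lies on chromosome X from 20870166 to 20874735. Wild type libraries held 8.41, 10.7, 6.40 and 9.58 FPKM of Timp1, and knockout libraries held 14.6, 24.4, 17.5 and 17.4 FPKM. Every knockout library lay above every wild type library, and replicate 2 was the highest. The mean went from 8.77 ± 1.84 to 18.5 ± 4.19 FPKM (SD, n = 4), a 2.11-fold higher level. On the log2 scale the change was 0.99 ± 0.17 (limma adjusted p = 0.00758, exact two-sided permutation p = 0.0286).

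Timp3 and Timp2, the most abundant TIMP genes, did not pass the test. Timp3, whose product stays bound to the matrix and also inhibits ADAM17 and ADAMTS proteases, was at 71.5, 57.2, 50.3 and 66.1 FPKM in wild type and at 55.2, 69.5, 56.3 and 85.1 FPKM in knockout libraries. Its log2 change was 0.11 with a 95% interval from -0.24 to 0.45 (limma adjusted p = 0.683, exact two-sided permutation p = 0.600). Without knockout replicate 4 the sign turned, at -0.02. Timp2, which inhibits MMPs and also helps MMP14 to activate pro-MMP2, was at 54.4, 48.4, 53.4 and 47.4 FPKM in wild type and at 45.4, 58.6, 61.3 and 52.3 FPKM in knockout libraries. Its log2 change was 0.09 with an interval from -0.14 to 0.32 (limma adjusted p = 0.607, exact two-sided permutation p = 0.429). For both genes the libraries of the groups were interleaved.

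Timp1, Timp3 and Timp4 each lie inside a synapsin gene on the opposite strand, namely Syn1, Syn3 and Syn2, and the strand setting of the quantification is not stated in the labels. Syn2 was at 1.27 ± 0.203 FPKM in wild type hearts and 1.25 ± 0.267 FPKM in knockout hearts (SD, n = 4, limma adjusted p = 0.942). Exons of Syn2 covered 90 of the 5894 exonic bases of Timp4 in GENCODE M21. Syn1 stayed between 0.188 and 0.355 FPKM, and its exons shared no base with those of Timp1. Exons of Syn3 covered 1733 of the 8144 exonic bases of Timp3, and Syn3 was listed at 0.0420 to 0.427 FPKM.

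**Figure D1:**
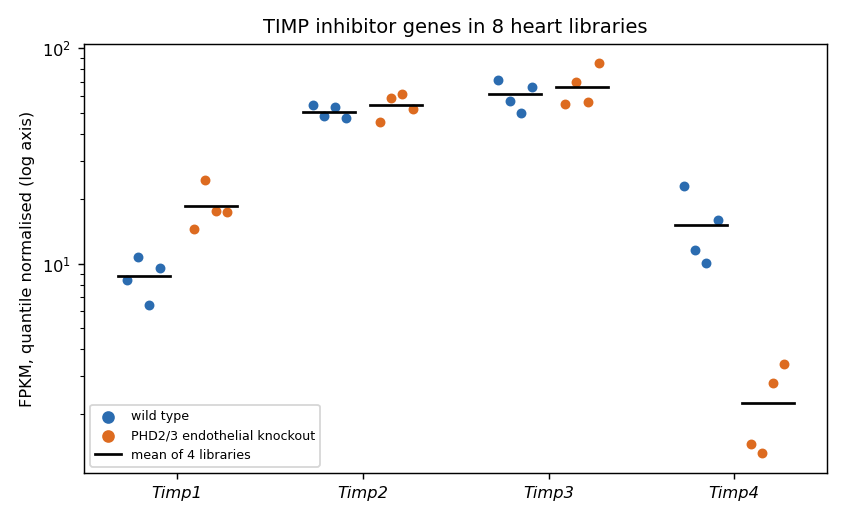
FPKM on a log axis of the 4 TIMP genes; each library is a point (wild type blue, knockout orange), and black lines mark group means, n = 4. Timp1 lies higher in every knockout library (mean 8.77 against 18.5 FPKM), Timp4 lower in every one (15.1 against 2.24 FPKM), and the points of Timp2 and Timp3 are interleaved.

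Cell types that could carry these inhibitors were read from marker lists, whose counts stand beside 12.2% of all genes tested called, 6.15% higher and 6.01% lower. Adipocyte markers summed to 26.3 to 63.2 FPKM in wild type hearts and 33.7 to 122 FPKM in knockout libraries, and 0 of 6 measured markers were called. Endothelial markers summed to 594 to 712 FPKM in wild type hearts and 522 to 625 FPKM in knockout libraries, and 4 of 12 were called, all lower, among them Tek, which fell from 22.4 ± 1.52 to 14.8 ± 2.01 FPKM (SD, n = 4). Of 10 fibroblast markers 3 were called, all lower. Of 9 smooth muscle and pericyte markers 1 was called, higher (11.1%), a share near the 12.2% of all genes called in either direction. Of 8 cardiomyocyte markers 1 was called, lower (12.5%), also a share near that of all genes called. Epicardial markers summed to 46.9 to 89.7 FPKM in wild type hearts and 75.5 to 92.3 FPKM in knockout libraries, and 2 of 7 were called, both higher. The epicardial sums overlapped only through wild type replicate 4, since the other wild type libraries reached at most 50.8 FPKM. The 7 epicardial markers were mixed, however, with a median log2 change of 0.04 and a range from -0.72 to 2.13. In whole heart, fewer cells of a type and less RNA per cell cannot be told apart, and the part of these shifts in the Timp4 and Timp1 values was not tested.

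The summed level of the TIMP genes overlapped between the groups, and the shares of Timp4 and Timp1 in it did not. The 4 TIMP genes summed to 157, 128, 120 and 139 FPKM in wild type libraries and to 117, 154, 138 and 158 FPKM in knockout libraries, with the highest library in the knockout group and the lowest there as well. Timp4 made up 14.6%, 9.03%, 8.41% and 11.5% of the TIMP sum in wild type and 1.25%, 0.854%, 2.02% and 2.16% in knockout libraries. Timp1 made up 5.35%, 8.37%, 5.32% and 6.89% in wild type and 12.5%, 15.9%, 12.7% and 10.99% in knockout libraries. Timp1 was below Timp4 in every wild type heart, with a ratio of 0.368 to 0.926, and above it in every knockout heart, with a ratio of 5.09 to 18.6. Timp3 and Timp2 together made up the bulk of the sum, at means of 44.9% and 37.8% in wild type and 46.8% and 38.6% in knockout hearts.

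The 52 protease genes, 23 MMP, 10 ADAM with a catalytic site and 19 ADAMTS genes, summed to 338, 332, 341 and 337 FPKM in wild type hearts and 366, 386, 349 and 331 FPKM in knockout libraries. The wild type hearts were closely alike, and knockout replicate 4 lay below them while the others lay above. Of these protease families, only the ADAMTS genes had sums that did not overlap between groups. They summed to 80.3, 77.9, 77.5 and 80.6 FPKM in wild type hearts and 103, 104, 89.4 and 95.5 FPKM in knockout libraries. MMP genes summed to 146 ± 4.50 FPKM in wild type hearts and 141 ± 13.7 FPKM in knockout hearts (SD, n = 4). Catalytic ADAM genes summed to 111 ± 1.43 FPKM in wild type hearts and 119 ± 10.6 FPKM in knockout hearts (SD, n = 4).

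The ratio of summed proteases to summed TIMP genes was 2.15, 2.59, 2.84 and 2.42 in wild type and 3.14, 2.51, 2.53 and 2.09 in knockout libraries. Both the highest and the lowest ratio were in knockout libraries, replicates 1 and 4. The mean ratio was 2.50 ± 0.288 in wild type and 2.57 ± 0.432 in knockout hearts (SD, n = 4), a difference below the spread between libraries. No test was made on these sums. They weigh every transcript alike and do not measure protein or activity.

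**Figure D2:**
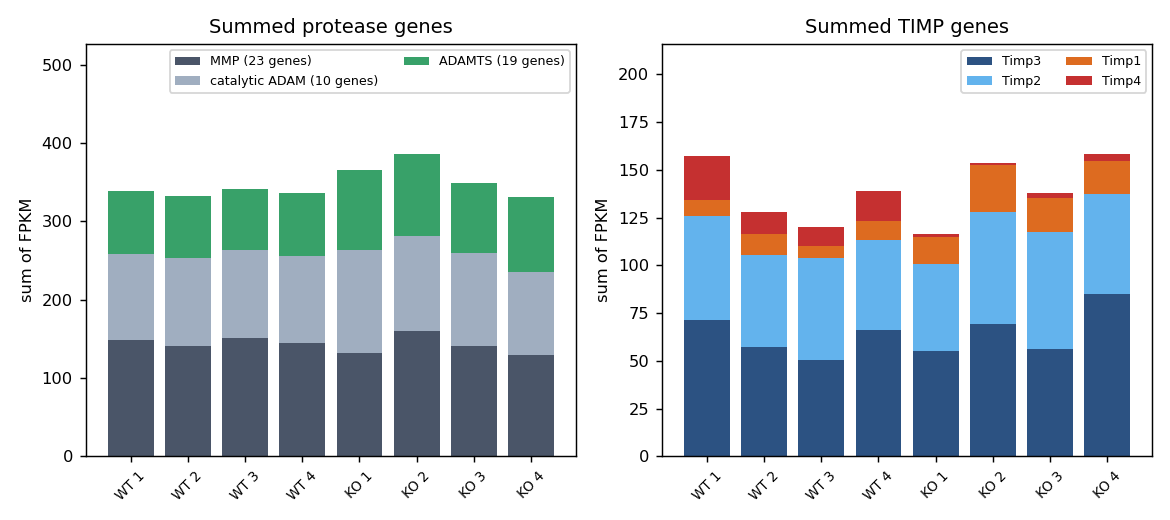
Summed FPKM in each library (WT, wild type; KO, knockout; numbers are replicates), on the left for the MMP, catalytic ADAM and ADAMTS genes and on the right for the 4 TIMP genes. The ADAMTS segment is taller in every knockout library (89.4 to 104 FPKM) than in any wild type library (77.5 to 80.6 FPKM), and the Timp4 segment is thinner while the whole TIMP bar overlaps between groups.

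Of the 85 members, 37 passed the filter, 35 others had values below it and 13 were listed at 0 in every library. Among the 37 tested, 10 were called higher and 3 lower. That is 35.1% of the members tested, against 12.2% of all genes tested, with 27.0% higher (6.15% of all genes) and 8.11% lower (6.01% of all genes). Among the 37, 10 lay higher in every knockout library than in any wild type library (10.3% of all genes did) and 7 lower (10.4% of all genes), 17 in all (20.7% of all genes). The median log2 change was 0.10 for the members tested and -0.01 for all genes tested. Adam12, Adam22 and Adam23 had wild type means under 1 FPKM and Adamtsl3 and Adamts19 knockout means under 1 FPKM, so these passed the filter through the group where they were high and had to differ. By role, 7 of 26 tested proteases were called higher (26.9%) and 1 lower (3.85%), the latter no larger a share than among all genes.

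The 10 called higher became 5 without wild type replicate 2 or 3, and 6 when knockout replicate 2 was left out, or wild type replicate 1 or 4. The 3 called lower became 5 without knockout replicate 1 or 4. Without replicate 4 of both groups, an alternative added after the data were seen, 7 were higher and 5 lower. In these fits the 7 higher proteases became 4 when wild type replicate 1 was left out, and 3 when wild type replicate 2, 3 or 4 was, or when knockout replicate 2 was. The 1 lower protease became 3 without knockout replicate 1 or 4 and 2 without knockout replicate 3.

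**Figure D3:**
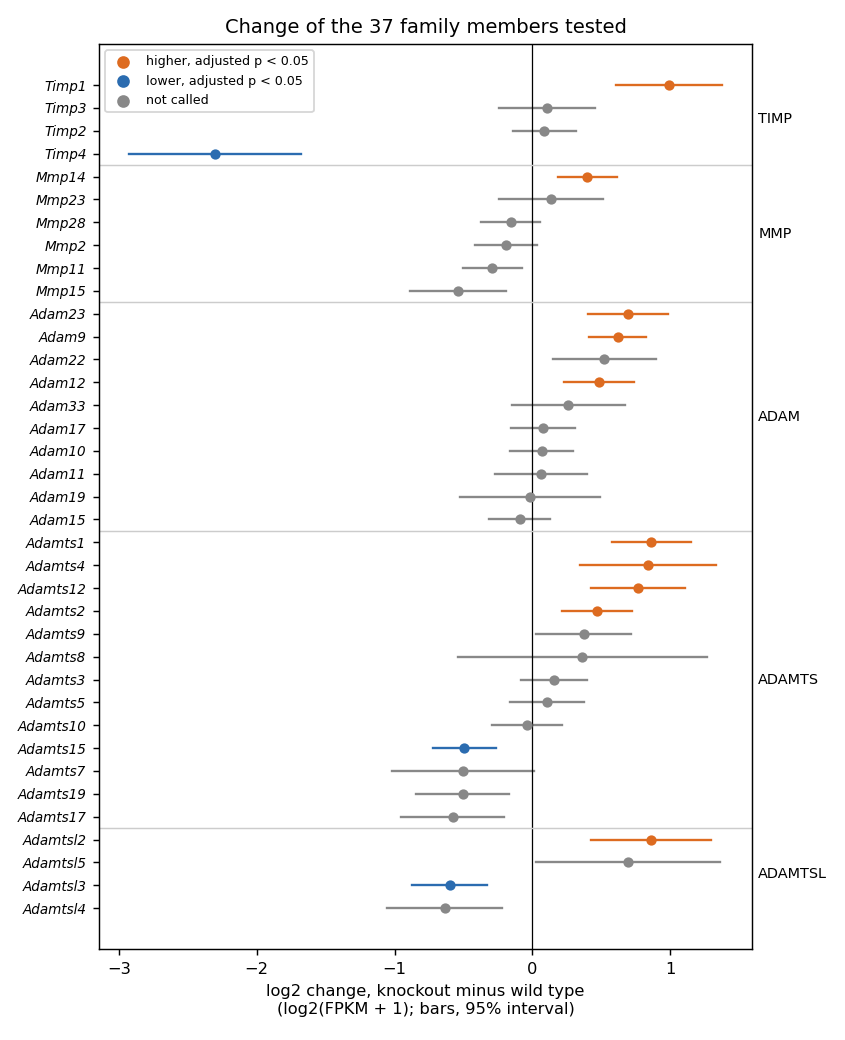
Log2 change, knockout minus wild type on the log2(FPKM + 1) scale, of the 37 tested members by family; points are estimates from 4 against 4 libraries, bars are 95% intervals, orange and blue mark genes called higher and lower. Timp4 stands alone at -2.30, and the called rises run from 0.40 for Mmp14 to 0.99 for Timp1.

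Of 6 tested proteoglycan-cutting ADAMTS genes, 2 were called higher and 1 lower (6.15% and 6.01% of all genes tested). Adamts1, which cuts versican and aggrecan (chromosome 16, 85793827 to 85803113), was at 11.96, 11.1, 10.4 and 10.6 FPKM in wild type and at 27.9, 20.02, 18.9 and 17.8 FPKM in knockout libraries. The knockout libraries lay well clear of the wild type ones, with replicate 1 the highest. The log2 change was 0.86 ± 0.13 (limma adjusted p = 0.00415), and the mean was 1.92-fold higher.

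Adamts4, another aggrecan- and versican-cutting enzyme (chromosome 1, 171250421 to 171260637), was at 1.20, 1.41, 1.57 and 0.82901 FPKM in wild type and at 5.56, 2.63, 2.41 and 2.14 FPKM in knockout libraries. The groups did not overlap, but knockout replicate 1 held more than the other knockout libraries. The log2 change was 0.84 ± 0.22 (limma adjusted p = 0.0382). This call was lost when any wild type library was left out, and when knockout replicate 2 or 3 was (highest adjusted p 0.0980), and the log2 change was 0.60 without knockout replicate 1.

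Adamts15, which cuts versican as well (chromosome 9, 30899155 to 30922452), fell. It was at 5.75, 4.18, 5.05 and 4.59 FPKM in wild type and at 3.09, 3.61, 2.93 and 3.06 FPKM in knockout libraries. All knockout libraries lay below all wild type ones, with a log2 change of -0.49 ± 0.10 (limma adjusted p = 0.0151). Adamts9 was at 9.29 ± 0.831 FPKM in wild type hearts and 12.6 ± 3.42 FPKM in knockout hearts (SD, n = 4, limma adjusted p = 0.139), with 17.5 FPKM in knockout replicate 1, and was called with array weights (adjusted p = 0.0407). Adamts8 ranged from 2.65 to 7.53 FPKM in wild type and from 3.00 to 12.2 FPKM in knockout libraries, and Adamts5 from 3.74 to 4.34 FPKM and from 3.56 to 5.76 FPKM, and neither was called.

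Of the procollagen and cartilage-matrix branches, Adamts2 and Adamts12 rose. Adamts2, which removes the amino-terminal propeptide of fibrillar procollagens (chromosome 11, 50602084 to 50807573), was at 12.8, 13.0, 13.9 and 12.2 FPKM in wild type and at 15.0, 22.2, 17.1 and 19.7 FPKM in knockout libraries. Its lowest knockout library was just above its highest wild type library, and the log2 change was 0.47 ± 0.11 (limma adjusted p = 0.0282). The call of Adamts2 was lost in 5 of 8 omissions of a library, those of knockout replicate 2 and of each wild type library (highest adjusted p 0.0782).

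Adamts12, which cuts cartilage oligomeric matrix protein (chromosome 15, 11064790 to 11349231), was at 2.87, 2.12, 3.21 and 1.52 FPKM in wild type and at 4.30, 4.42, 5.06 and 5.13 FPKM in knockout libraries. The groups were separate and the knockout libraries close together. Its log2 change was 0.77 ± 0.15 (limma adjusted p = 0.0135), and the call held in 8 of 8 omissions. Adamts7, of the same branch, was at 6.86 to 9.84 FPKM in wild type and at 3.41, 4.23, 7.45 and 7.89 FPKM in knockout libraries (limma adjusted p = 0.180). Knockout replicates 1 and 2 were low and the other two lay among the wild type values.

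Adamts3, another procollagen N-proteinase gene, was at 0.936 to 1.29 FPKM in wild type hearts and 1.15 to 1.74 FPKM in knockout libraries and was not called (limma adjusted p = 0.361), nor were the other ADAMTS genes. Adamts17 was at 2.26, 2.92, 2.98 and 2.23 FPKM in wild type and at 2.01, 1.65, 1.40 and 0.717 FPKM in knockout libraries (log2 change -0.58 ± 0.17, limma adjusted p = 0.0512). Adamts19 was at 2.23, 1.61, 1.60 and 1.78 FPKM and at 1.16, 1.15, 1.23 and 0.449 FPKM (log2 change -0.51 ± 0.15, limma adjusted p = 0.0558). For both genes the knockout libraries all lay below the wild type libraries and replicate 4 was the lowest, but Adamts19 passed the filter through the wild type libraries. Adamts17 was called without knockout replicate 1 (adjusted p = 0.0225), with median centring (0.0492) and with array weights (0.0159), and Adamts19 with array weights (0.0436). Adamts3, Adamts17 and Adamts19 were named after their values were seen. Adamts10, an ADAMTS of fibrillin microfibrils, was at 12.6 ± 1.10 FPKM in wild type hearts and 12.3 ± 1.96 FPKM in knockout hearts (SD, n = 4), with an interval of the log2 change from -0.30 to 0.22. The von Willebrand factor-cutting enzyme gene Adamts13 was at most 0.0154 FPKM in any library.

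Among ADAM genes, 3 of 10 tested members were called higher and 0 lower (6.15% and 6.01% of all genes tested), and of the 3 called, Adam12 and Adam23 passed the filter through the knockout libraries. Adam9, a widely expressed sheddase (chromosome 8, 24949611 to 25016927), was at 17.2, 13.7, 17.3 and 14.8 FPKM in wild type and at 23.2, 26.4, 23.5 and 25.6 FPKM in knockout libraries. The knockout libraries formed a tight group above the wild type libraries, with a 1.57-fold higher mean. The log2 change was 0.62 ± 0.09 (limma adjusted p = 0.00419), and the call held in 8 of 8 omissions.

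Adam12, a sheddase known to release heparin-binding EGF (chromosome 7, 133883199 to 134232146), was at 0.758, 0.581, 0.761 and 0.696 FPKM in wild type and at 1.66, 1.69, 1.14 and 1.09 FPKM in knockout libraries. All knockout libraries were above 1 FPKM and all wild type libraries below, and the log2 change was 0.48 ± 0.11 (limma adjusted p = 0.0252). Its call was lost when knockout replicate 2 was left out, and when wild type replicate 2, 3 or 4 was (highest adjusted p 0.0835). Adam23, which has no catalytic site and binds integrins and LGI proteins (chromosome 1, 63445891 to 63596276), was at 0.911, 0.886, 0.728 and 0.730 FPKM in wild type and at 1.38, 1.85, 1.97 and 2.66 FPKM in knockout libraries. The groups did not overlap, and the log2 change was 0.69 ± 0.13 (limma adjusted p = 0.0107). Adam22, its paralog without a catalytic site, was at 0.967 ± 0.183 FPKM in wild type hearts and 1.88 ± 0.696 FPKM in knockout hearts (SD, n = 4, limma adjusted p = 0.0684), and knockout replicate 1 lay among the wild type libraries. Adam22 was called without that library (log2 change 0.67, adjusted p = 0.0133) and with array weights (adjusted p = 0.0428).

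The principal sheddases of Notch and of cytokine and growth factor precursors did not pass the test. Adam10 was at 18.01 ± 0.572 FPKM in wild type hearts and 19.05 ± 2.66 FPKM in knockout hearts (SD, n = 4), with an interval of the log2 change from -0.16 to 0.29. Adam17 was at 9.84 ± 1.35 FPKM in wild type hearts and 10.4 ± 0.813 FPKM in knockout hearts (SD, n = 4), with an interval from -0.16 to 0.31. Adam15, the ADAM gene with the highest level, was at 50.4 ± 5.58 FPKM in wild type hearts and 47.1 ± 4.56 FPKM in knockout hearts (SD, n = 4), with an interval from -0.31 to 0.13. Adam19, a sheddase of neuregulin, was at 14.5 ± 2.58 FPKM in wild type hearts and 14.8 ± 4.66 FPKM in knockout hearts (SD, n = 4), with 8.31 FPKM in knockout replicate 4. For these 4 genes the groups overlapped. Adam11 and Adam33 stayed between 0.675 and 2.02 FPKM and were not called.

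In the MMP family, Mmp14 was the 1 called gene of 6 tested (16.7%, near the 12.2% of all genes tested). Mmp14, the membrane-type enzyme that activates pro-MMP2 and cuts collagen at the cell surface (chromosome 14, 54431612 to 54445364), was at 32.7, 31.5, 32.4 and 32.4 FPKM in wild type and at 43.5, 49.5, 43.8 and 35.8 FPKM in knockout libraries. The wild type libraries were nearly identical and all knockout libraries lay above them, replicate 4 least. The log2 change was 0.40 ± 0.10 (limma adjusted p = 0.0266), a 1.34-fold higher mean. This call was lost when any library other than knockout replicate 1 or 4 was left out (highest adjusted p 0.0818).

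Mmp15, another membrane-type enzyme at the same wild type level, was at 33.5, 32.7, 33.8 and 29.5 FPKM in wild type and at 24.4, 21.9, 28.0 and 15.3 FPKM in knockout libraries. All knockout libraries lay below the wild type libraries, but the gene just missed the threshold (log2 change -0.54 ± 0.16, limma adjusted p = 0.0512). It was called without knockout replicate 1, 3 or 4 (adjusted p = 0.0439, 0.0330 and 0.0340). Mmp2, gelatinase A and the protease gene with the highest level, was at 63.8, 58.7, 64.4 and 60.9 FPKM in wild type and at 47.0, 62.8, 49.0 and 59.3 FPKM in knockout libraries. Knockout replicates 1 and 3 were low and the other two lay within the wild type range (interval of the log2 change from -0.42 to 0.04, limma adjusted p = 0.239). Mmp11 was at 3.44 ± 0.352 FPKM in wild type hearts and 2.64 ± 0.331 FPKM in knockout hearts (SD, n = 4, limma adjusted p = 0.0791) with no overlap between groups, and it was called without knockout replicate 4 (adjusted p = 0.0449). Mmp23 was at 11.5 ± 1.47 FPKM in wild type hearts and 12.98 ± 3.73 FPKM in knockout hearts (SD, n = 4, limma adjusted p = 0.637), with an interval of the log2 change from -0.24 to 0.51. Mmp28 overlapped between groups as well (limma adjusted p = 0.305).

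The collagenase, matrilysin and gelatinase B genes were at low levels in these hearts. Mmp1a, Mmp1b and Mmp7 were listed at 0 in every library, and Mmp8 and Mmp13 were at most 0.0856 FPKM. Mmp9, gelatinase B of neutrophils and other leukocytes, ranged from 0.0620 to 0.229 FPKM. Of the MMP genes below the filter, Mmp19, Mmp16 and Mmp17 had the highest means, and none of these exceeded 0.929 FPKM in any library. Mmp12, known from macrophages, was at 1.38 FPKM in wild type replicate 4 and 0.891 FPKM in knockout replicate 4, against 0.0631 to 0.320 FPKM in the other 6 libraries. Adam8 of leukocytes was at 2.69 FPKM in wild type replicate 4 and at 0.197 to 0.935 FPKM elsewhere, and Adam28 was at 0.460 FPKM there and at most 0.0169 FPKM elsewhere. Mmp12 and Adam28 were named after their values were seen, and that library is the one that held the airway and neutrophil markers above. Of the ADAM, ADAMTS and ADAMTS-like genes below the filter, Adam1a and Adam5 reached at most 0.8285 FPKM and 0.332 FPKM, Adamts6, Adamts14 and Adamts20 at most 1.09, 1.28 and 0.345 FPKM, and Adamtsl1 at most 0.723 FPKM. Summed macrophage markers were 98.8 FPKM in wild type replicate 4 and 97.9 to 123 FPKM in the others, and the part of any of these markers in the values was not tested.

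ADAMTS-like genes, which encode matrix proteins without a protease domain, split. Adamtsl2, a microfibril-associated protein linked to TGF-beta control (chromosome 2, 27079379 to 27108981), was at 12.4, 15.9, 14.8 and 16.0 FPKM in wild type and at 22.2, 40.8, 20.6 and 30.5 FPKM in knockout libraries. Every knockout library lay above the wild type libraries, and they differed among themselves by more than the wild type libraries did. The log2 change was 0.86 ± 0.19 (limma adjusted p = 0.0222), and the call was lost without wild type replicate 1, 2 or 3 (adjusted p up to 0.0568). Adamtsl3 (chromosome 7, 82335694 to 82614450) was at 2.16, 1.39, 1.85 and 1.62 FPKM in wild type and at 0.9996, 0.683, 0.989 and 0.597 FPKM in knockout libraries. It fell without overlap, with a log2 change of -0.60 ± 0.12 (limma adjusted p = 0.0145), but it passed the filter through the wild type libraries.

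Adamtsl5 was at 9.18, 8.08, 8.60 and 6.93 FPKM in wild type and at 26.6, 16.0, 10.2 and 8.18 FPKM in knockout libraries. Knockout replicates 1 and 2 were high and replicate 4 lay among the wild type values, and the gene was not called (limma adjusted p = 0.155). Adamtsl4, a fibrillin-binding member, was at 14.5, 9.48, 13.0 and 7.63 FPKM in wild type and at 5.18, 6.56, 7.94 and 7.06 FPKM in knockout libraries (limma adjusted p = 0.0540). It overlapped only through wild type replicate 4, and without that library it was called (adjusted p = 0.0290).

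**Figure D4:**
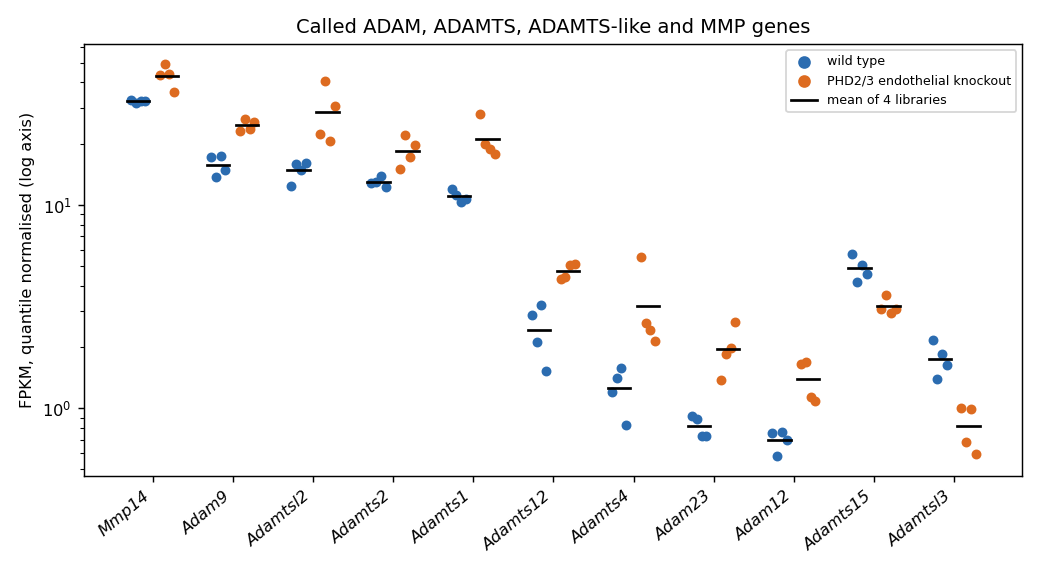
FPKM on a log axis of the 11 called members other than TIMP genes, the 9 called higher first and the 2 called lower last; each library is a point (wild type blue, knockout orange), and black lines mark group means, n = 4. No gene has overlapping groups, and knockout replicate 1 of Adamts4 lies at 5.56 FPKM, apart from the others.

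In order of level, Mmp2, Timp3, Timp2 and Adam15 led the members in wild type hearts, at 61.9 ± 2.65, 61.3 ± 9.40, 50.9 ± 3.53 and 50.4 ± 5.58 FPKM (SD, n = 4). Mmp2 and Timp3 did not differ beyond their spread, nor did Timp2 and Adam15. Mmp15 and Mmp14 followed at 32.4 ± 1.94 and 32.3 ± 0.508 FPKM (SD, n = 4), and the remaining tested members were at or below 18.01 FPKM. Timp4 was the 9th member by level in wild type and the 27th in knockout hearts. Timp1 went from the 19th place to the 12th, and Adamts1 from the 16th to the 9th.

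Other genes around the metalloproteases, namely activators, inhibitors, partners, docking genes and substrates, were taken from 7 lists with 78 genes. They were chosen like the members with earlier results known. Of the 56 tested, 14 were called higher and 9 lower (6.15% and 6.01% of all genes tested). Several of the lists had few tested genes, so each call makes up a large share of such a list. Plasminogen activation had all 5 tested genes higher, and plasmin is a known activator of pro-MMPs. Plaur, the urokinase receptor, rose from 2.31 ± 0.553 to 9.36 ± 2.04 FPKM (SD, n = 4, limma adjusted p = 0.000618). Its ligand Plau was at 1.58, 1.71, 1.94 and 2.13 FPKM in wild type and at 11.5, 5.65, 4.52 and 3.93 FPKM in knockout libraries (log2 change 1.28 ± 0.25, limma adjusted p = 0.0131). Plat, tissue plasminogen activator, rose 1.55-fold (limma adjusted p = 0.0138). Plaur, Plau and Plat, like Adamts1, Adamts4, Adamts9 and Adamtsl5, were highest in knockout replicate 1, which was noticed after the values were seen.

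Of the other inhibitors, 1 of 6 tested rose and 1 fell (6.15% and 6.01% of all genes tested). A2m, a broad protease trap, was at 0.183, 1.51, 1.33 and 0.0692 FPKM in wild type and at 6.52, 21.8, 17.6 and 14.4 FPKM in knockout libraries (limma adjusted p = 0.00233), and it passed the filter through the knockout libraries. Papln, papilin, a matrix glycoprotein that resembles ADAMTS proteins, fell from 6.78 ± 0.567 to 2.72 ± 1.24 FPKM (SD, n = 4, limma adjusted p = 0.0108). Reck, a membrane-anchored inhibitor of MMPs, was at 3.51 ± 0.319 FPKM in wild type hearts and 3.38 ± 0.584 FPKM in knockout hearts (SD, n = 4, limma adjusted p = 0.816), and was named after its values were seen. Proprotein convertases remove the propeptides of ADAM, ADAMTS and membrane-type MMP precursors, and 1 of 4 tested was called (12.2% of all genes tested). This was Pcsk6, which fell from 23.8 ± 1.69 to 12.9 ± 3.27 FPKM (SD, n = 4, limma adjusted p = 0.0109).

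Of 8 tested partners of ADAM10 and ADAM17, the tetraspanin genes Tspan33 and Tspan15 were called (25%, against 12.2% of all genes tested). Both encode tetraspanins that escort ADAM10. Tspan33 was at 0.183, 0.360, 0.370 and 0.388 FPKM in wild type and at 4.91, 3.25, 2.47 and 5.08 FPKM in knockout libraries (log2 change 1.86 ± 0.18, limma adjusted p = 0.000504), and it passed the filter through the knockout libraries. Tspan15 fell from 4.28 ± 0.536 to 2.66 ± 0.297 FPKM (SD, n = 4, limma adjusted p = 0.0113). Among 20 tested genes of proteins that ADAM10 or ADAM17 shed, 2 were higher and 4 lower (6.15% and 6.01% of all genes tested). Cx3cl1 rose 1.84-fold, and Dll1, Jam3 and Tek fell 2.21-fold, 1.66-fold and 1.51-fold (limma adjusted p = 0.0124, 0.0133, 0.00844 and 0.00779 in that order). Dll1, at 1.95 FPKM in wild type hearts and 0.883 FPKM in knockout hearts, passed the filter through the wild type libraries.

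Proteoglycans and fibulins that ADAMTS enzymes cut or bind changed in 4 of 5 tested cases, 2 in each direction (12.2% of all genes tested were called). Fbln1, a cofactor of ADAMTS1, fell from 31.1 ± 1.72 to 18.3 ± 2.04 FPKM (SD, n = 4, limma adjusted p = 0.00171), and Dcn, decorin, fell from 344 ± 20.7 to 233 ± 23.7 FPKM (SD, n = 4, limma adjusted p = 0.00476). Fbln2, fibulin-2, rose from 59.3 ± 4.52 to 111 ± 27.4 FPKM (SD, n = 4, limma adjusted p = 0.00700), and Bgn, biglycan, rose 1.71-fold (limma adjusted p = 0.00712), with 3 knockout libraries at the same value of the ladder that quantile normalisation gives to high genes. Of 9 tested genes for induction or docking of MMPs, 3 rose and 0 fell (6.15% and 6.01% of all genes tested). These were Itgb3, the integrin subunit that docks MMP2, from 1.20 ± 0.145 to 5.86 ± 2.39 FPKM (SD, n = 4, limma adjusted p = 0.00171), Thbs1, thrombospondin 1, from 5.81 ± 1.15 to 14.6 ± 5.85 FPKM (SD, n = 4, limma adjusted p = 0.0150), and Sparc. Sparc rose 1.39-fold (limma adjusted p = 0.0335), and its call was lost when any library other than knockout replicate 4 was left out (highest adjusted p 0.0963).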

How the data were processed

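RNA-seq of 8 mouse heart libraries was analysed, 4 from wild type and 4 from knockout mice. The authors deposited 1 table of quantile-normalised values for 22518 genes, read here as FPKM because Cufflinks is named in the submitters' processing notes, together with TopHat2 and mm10; the table does not name the unit. Tool versions, annotation, strand setting and depth have no entry (not given in the sources used here). Quantile normalisation gives the 39 highest ranks the same values in every library, so differences between libraries in total RNA are removed.

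Levels were analysed as log2(FPKM + 1) with limma 3.58.1 in R 4.3.3 (empirical Bayes with trend and robust settings), for the 11390 genes whose mean reached 1 FPKM, with Benjamini-Hochberg adjustment over all of them and calls under 0.05. The fit was tested on simulated data. For the 4 TIMP genes, group means were tested by exact permutation as well, two-sided. Groups came from the sample labels. Family members and lists were chosen with earlier results of these data known. The text names all TIMP genes, every called member, tested members with a mean of at least 10 FPKM, the 3 highest others of a family, and at most 4 called genes of each other list by smallest p. Other tested members and list genes are said to be named after their values were seen; Egln1, Egln3, Syn1 to Syn3 and Scgb1a1 serve as checks, and further members below the filter are given as untested values. Alternatives were a pseudocount of 0.1, no filter, a mean of at least 5 FPKM, median centring, no trend, array weights, a replicate block, a minimum change of 1.5-fold and leaving out each library. Gene coordinates are from GENCODE M21 on mm10 and sequences from RefSeq on GRCm38.p6. Results for some genes that the naming rule covers are not reported here.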

Additional observations from a re-analysis of the deposited data

Results flagged for a closer look

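In 94 groups of 4 libraries, 5 held a library whose gap to its nearest neighbour took up more of the group's range than Dixon's 95% critical value, and chance flags about 1 in 20 groups. These groups covered the tested members and the members with the highest means below the filter. Other members, such as Adam28, were not checked. Adamts4 was at 5.56 FPKM in knockout replicate 1, against 2.14 to 2.63 FPKM in the other knockout libraries. Adamts19 was at 0.449 FPKM in knockout replicate 4, against 1.15 to 1.23 FPKM. Adam8 was at 2.69 FPKM in wild type replicate 4, against 0.230 to 0.462 FPKM in the other wild type libraries. Adam1a was at 0.151 FPKM in knockout replicate 4, against 0.331 to 0.353 FPKM. Adamts14 was at 0.702 FPKM in knockout replicate 3, against 0.639 to 0.647 FPKM, a gap that is small in itself.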

How the results depend on the processing

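Timp4 was called in all 17 alternatives run on it, with log2 changes from -2.73 to -2.09. Timp1 was called in all but the minimum change of 1.5-fold (0.99, adjusted p = 1), under which 37 genes in all were called. Members called higher, 10 in the reported fit, were 6 at a mean of at least 5 FPKM, 0 at the minimum change and 5 to 11 when 1 library was left out. Members called lower, 3 as reported, were 5 with median centring, 8 with array weights, 1 at the minimum change, 5 without replicate 4 of both groups and 3 to 5 with 1 library left out. Proteases called higher, 7 as reported, were 4 at a mean of at least 5 FPKM, 0 at the minimum change and 3 to 7 with 1 library left out. Proteases called lower, 1 as reported, were 2 without a filter, 3 with median centring, 5 with array weights, 0 at the minimum change, 2 without replicate 4 of both groups and 1 to 3 with 1 library left out. Genes of the other lists called higher and lower, 14 and 9, were 3 and 0 at the minimum change, and 11 to 14 and 8 to 11 with 1 library left out. Over all genes, 1385 calls became 575 without wild type replicate 2 and 1820 without knockout replicate 1, the extremes with 1 library left out. All-gene calls were 2028 with array weights, 1407 with median centring and 1000 without replicate 4 of both groups. They were 1078 of 17874 genes without a filter and 997 of 7402 at a mean of at least 5 FPKM. Counts of members thus moved while calls over the whole table moved as well. The causes were not tested.

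Same-numbered libraries did not deviate together (correlations -0.226, 0.00930, 0.102 and -0.0966). So few libraries cannot exclude a pairing by number, and the labels do not state one. With the replicate number as a block, 6 members and 3 proteases were higher, 0 proteases were lower, and 9 genes of the other lists were higher; all genes called were 613.

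Signs turned for uncalled genes. With 1 library left out, log2 changes ranged from -0.0175 to 0.188 for Timp3 (negative without knockout replicate 4), from -0.146 to 0.218 for Adam19, from -0.0152 to 0.127 for Adam17, from -0.102 to 0.0290 for Adamts10, from -0.0337 to 0.244 for Mmp23, from -0.0509 to 0.150 for Adam11 and from -0.00969 to 0.180 for Adamts5. With array weights Adam19 was 0.0531 and Adam11 -0.0938. Without replicate 4 of both groups Adam19 was 0.202, Adam11 -0.133 and Adamts5 -0.0193. The log2 ratio of proteases to TIMP genes, 0.03, ranged from -0.07 to 0.12 with 1 library left out and was 0.08 without Mmp2. Depth is unknown, so counting error at low FPKM could not be given.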
